A study of Mus musculus with 8 samples.

Results

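Inside the bodies of mouse protein-coding genes, 3000 regions carried a peak of histone H3 lysine 27 acetylation (H3K27ac) in both libraries of freshly isolated satellite cells and in neither library of activated satellite cells. They were chosen from 72585 union regions, made by merging the peaks of all 4 lists wherever they overlapped by at least 1 base. A member had its midpoint inside a protein-coding gene and more than 2000 bases from any end of any such gene, a position shared by 34927 union regions. The members are called lost regions below, a name for this pattern of peaks. Since peak presence in these 4 lists chose the members, their levels in the 2 conditions are described here without a test.

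The cells were muscle stem cells from skeletal muscle of C57BL/6 mice, and the labels name no transgene, age or sex. FISC denotes satellite cells taken freshly from muscle that received no treatment. ASC denotes satellite cells activated in the animal, collected 2.5 days after an injury by barium chloride (BaCl2), which kills muscle fibres. Each condition had 2 H3K27ac libraries, numbered as replicates 1 and 2, and each had an input library that was not analysed here. The labels do not say whether replicates came from separate animals, so the spread between them may be technical.

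Satellite cells are the stem cells of skeletal muscle and lie under the basal lamina of the fibre. In resting muscle they are quiescent, a state held by Pax7, Notch signalling and the extracellular matrix, and injury drives them into the cell cycle and towards fusion. H3K27ac marks active promoters and enhancers, and many enhancers lie within introns of the gene they act on or of a neighbour.

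Very few lost regions sat at a transcription start. RefSeq start sites of GRCm38.p6, the assembly of mm10, could be compared with 2889 of the lost regions, and 43 of them (1.49%) held a start. The share was 1.11% for gene-body regions gained in ASC (a peak in both ASC lists and none in FISC) and 19.4% for gene-body regions with a peak in all 4 lists, called constant below. A start anywhere inside a region was counted, while only the midpoint had to lie away from gene ends. Constant regions had a median width of 1887 bases, against 579 for lost and 727 for gained regions, so they could reach a start more easily. Width was not matched. Of the 43, 29 held an internal start of their own host gene, 14 held the start of a non-coding gene and 0 that of another protein-coding gene. Of these 29 host genes, 6 had no other annotated start. Another 8 had a different annotated start under a peak in all 4 libraries, namely Abr, Btbd3, Csnk1g2, Cyth1, Fam53b, Nckap5, Ppfibp2 and Prickle2.

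The 4 sequences below are alternative promoters that lay wholly inside a lost region while another start of the same gene kept its peak in every library. They were chosen after their values were seen, and each runs 5′ to 3′ on the strand of the gene, from 250 bases before to 50 after the RefSeq start. Capitals mark matches to 1 of 15 short motifs searched on both strands: CAGCTG (myogenic E-box), GGGCGG (SP and KLF factors), TGGGAA (RBPJ, the DNA-binding factor of Notch signalling), TGTTTAC (forkhead), CCGGAA (ETS) and TGACGTCA (cAMP response element). The windows lie at chr11:118202681-118202980 on the minus strand (Cyth1), chr7:132776867-132777166 on the minus strand (Fam53b), chr7:107665228-107665527 on the plus strand (Ppfibp2) and chr10:80629406-80629705 on the plus strand (Csnk1g2).
Cyth1: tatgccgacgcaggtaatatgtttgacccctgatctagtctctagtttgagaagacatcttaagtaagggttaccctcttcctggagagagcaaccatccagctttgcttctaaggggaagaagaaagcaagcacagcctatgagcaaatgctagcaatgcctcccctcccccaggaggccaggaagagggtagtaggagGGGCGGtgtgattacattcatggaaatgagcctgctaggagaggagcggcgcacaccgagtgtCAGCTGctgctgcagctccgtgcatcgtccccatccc
Fam53b: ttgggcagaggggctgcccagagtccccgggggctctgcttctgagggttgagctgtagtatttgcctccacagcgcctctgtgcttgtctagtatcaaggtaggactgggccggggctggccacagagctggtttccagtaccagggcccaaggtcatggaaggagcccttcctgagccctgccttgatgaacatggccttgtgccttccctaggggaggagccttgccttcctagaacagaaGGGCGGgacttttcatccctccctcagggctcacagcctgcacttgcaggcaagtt
Ppfibp2: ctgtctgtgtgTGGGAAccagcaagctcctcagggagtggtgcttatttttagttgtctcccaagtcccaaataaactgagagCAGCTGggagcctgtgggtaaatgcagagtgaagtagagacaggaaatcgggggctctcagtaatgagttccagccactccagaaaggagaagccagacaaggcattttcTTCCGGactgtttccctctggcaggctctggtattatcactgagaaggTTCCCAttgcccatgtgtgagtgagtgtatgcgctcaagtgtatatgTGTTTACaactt
Csnk1g2: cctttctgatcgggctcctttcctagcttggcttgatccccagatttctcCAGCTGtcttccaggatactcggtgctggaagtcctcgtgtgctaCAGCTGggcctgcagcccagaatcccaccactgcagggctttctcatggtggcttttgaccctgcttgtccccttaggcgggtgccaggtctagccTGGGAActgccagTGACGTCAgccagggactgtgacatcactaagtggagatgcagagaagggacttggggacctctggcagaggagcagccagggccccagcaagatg

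Cyth1 encodes cytohesin-1, an exchange factor for ARF GTPases, and its lost region of 1329 bases had a fold enrichment over background of 4.57 in FISC replicate 1 and 5.50 in replicate 2. Fam53b, a regulator of Wnt signalling, had 4.69 and 4.45 at a lost region of 713 bases, which lay 21.7 and 21.4 kb from the nearest peak of ASC replicates 1 and 2. Ppfibp2, a gene of the liprin family, had 4.84 and 4.19, and an ASC peak lay within 0.353 and 0.234 kb in the same libraries. Csnk1g2, a casein kinase 1, had 5.93 and 3.93. The larger fold of Cyth1 and that of Csnk1g2 lay above the upper quartile of all lost regions in the same library, 4.97 in FISC replicate 2 and 4.84 in replicate 1.

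The motif matches are common among promoters and describe these letters only. Among 32817 RefSeq promoter windows of the same length, CAGCTG occurred in 16.3%, GGGCGG in 35.6%, TGGGAA in 25.6%, TGTTTAC in 3.65%, CCGGAA in 14.9% and TGACGTCA in 1.79%. The Csnk1g2 window held CAGCTG at 2 places and TGACGTCA at 1, and the Fam53b window held GGGCGG only. The windows had 8, 4, 3 and 5 CpG dinucleotides in the order printed, against a median of 7 over all promoters. Whether a factor bound any of these letters was not tested.

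The 4 peak lists held 43092 to 54700 peaks and covered 33.7 to 57.7 Mb, with the longer lists and the greater coverage in both ASC libraries. Read totals were not given in the files, so the depth behind a peak is unknown, and a missing peak means that no peak passed the submitters' threshold. As a check of the labelled cells, 18 of 20 satellite cell markers had covered sequence within 2 kb of a gene end, with Pax7 at 2.83 and 2.84 kb in ASC replicates 1 and 2 and at 3.45 and 3.08 kb in FISC replicates 1 and 2. Over whole lists of markers of other cells, 13 of 20 endothelial, 14 of 20 myeloid, 15 of 20 lymphoid, 11 of 20 Schwann and tendon, 10 of 22 fibroblast and 6 of 20 smooth muscle and pericyte markers had no peak at their ends in any library, beside 8311 of 21883 genes in all. Pecam1 and Cdh5 of endothelium, Ptprc and Itgam of leukocytes, and Pdgfra and Dcn of fibro-adipogenic cells were among those at 0. Other markers were covered in all 4 libraries, among them Acta2 of smooth muscle (2.63 to 2.997 kb), Scx of tendon (2.84 to 4.64 kb), the collagen gene Col3a1 (2.198 to 2.94 kb), Plvap of endothelium (0.855 to 2.75 kb) and Cd68 of macrophages (1.05 to 3.498 kb). These genes were chosen after their values were seen.

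Lost regions were shorter and lower than constant ones, a trait they shared with lost regions outside gene bodies. Their median width was 579 bases, from 202 to 4243, and 15.3% were wider than 1 kb, whereas constant gene-body regions had a median of 1887 bases and 82.5% of them exceeded 1 kb. Fold enrichment ran from 2.37 to 12.6 with a median of 4.04 in FISC replicate 1, and from 2.30 to 12.6 with a median of 4.21 in FISC replicate 2. Constant regions had FISC medians of 5.92 and 6.28, and ASC medians of 8.72 and 9.32. The 2 FISC folds of a lost region lay within 1.5 times of each other in 91.1% of cases. Across regions the log2 folds of the 2 replicates had a Pearson r of 0.435 (n = 3000, from 2 libraries, a description).

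The stronger a region was in FISC, the less often it lacked an ASC peak. Of 10072 gene-body regions with a peak in both FISC lists, 3000 (29.8%) had no ASC peak, 1111 (11%) had one in a single ASC list and 5961 (59.2%) had one in both. By quartile of the lower FISC fold, from the weakest to the strongest, the share without an ASC peak was 54%, 38.9%, 20.4% and 2.39%. The fold of a region was the highest of its peaks in a library, and the wider constant regions could hold more FISC peaks. Width was not matched. Only 60 of the 2506 regions in the top quartile were lost, and the plot of ASC presence by FISC fold shows the same steps. Over all gene-body regions the lost pattern made up 8.59%, a share fixed by the rule from which nothing is read.

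**Figure D1:**
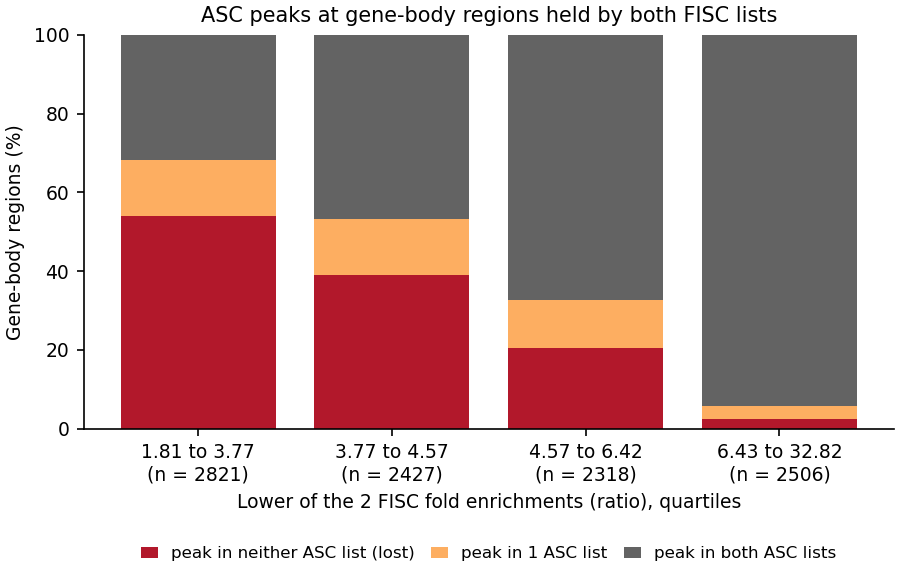
Gene-body regions with a peak in both FISC lists, split into quartiles of the lower FISC fold enrichment (x axis, ratio) and shown as the percent with a peak in neither, 1 or both ASC lists (y axis). The share without an ASC peak goes from 54% in the weakest quartile to 2.39% in the strongest.

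Absence of an ASC peak was often local. The nearest ASC peak lay at a median of 4.80 kb, within 1 kb for 21.5% of lost regions, within 5 kb for 50.8% and within 50 kb for 94.2%. At the limit of the rule, lost regions in Plxnd1 and Deptor abutted an ASC peak with 0 bases between, and 1 in Aatk was separated by 1 base. Just outside the rule, regions in Spred2, Bicc1 and Zbtb20 shared 2, 14 and 21 bases with an ASC peak. At the limit of 2000 bases from a gene end, lost regions in Lmod2, Ngfr and Heyl had midpoints 2004, 2005 and 2009 bases away, and the excluded regions in Cilp2, Lpp and Otoa lay 1988, 1976 and 1971 bases away.

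Within genes the lost regions were spread along the body. For 2252 of them with a single host gene of known strand, the median position was 47% of the way from the 5′ end of the gene to its 3′ end. The median distance from the nearest annotated start of the host gene was 31.1 kb, beside 34.0 kb for gained and 19.2 kb for constant regions. Within 10 kb of such a start lay 21.6% of lost, 20.1% of gained and 38.2% of constant regions. The medians of lost and gained regions lay close together, and constant regions lay nearer to starts.

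The 10 strongest lost regions, ranked by the lower of the 2 FISC folds, stood far above the median. The first was a region of 2749 bases at chr9:69133232-69135980 in Rora, a nuclear receptor of the circadian clock, with folds of 12.6 and 9.90 in FISC replicates 1 and 2 and no ASC peak within 7.27 kb. Regions in Glis3, a zinc-finger factor (9.68 and 11.3), and in Pdzd2, a PDZ-domain protein (9.68 and 10.02), came next. Dclk3, a doublecortin-like kinase, had a region of 2268 bases with folds of 12.1 and 9.66. Foxn3, a forkhead repressor, had the highest fold in FISC replicate 2 among the 10, at 12.6, beside 8.61 in replicate 1. In Dmd, the gene of dystrophin, a region of 2026 bases had folds of 8.61 and 9.69, and the nearest peak of either ASC library was 133 kb away. The other 4 lay in Fancc of the Fanconi anaemia core complex, in Capzb, an actin-capping subunit, in the G-protein regulator Rgs6 and in the calcium channel subunit gene Cacna2d4, with lower folds of 8.55 to 9.41.

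The 5 widest lost regions lay in 4 genes. Nedd4l, a ubiquitin ligase, held 1 of 4243 bases (folds 4.30 and 5.76 in FISC replicates 1 and 2), and Clmn, which encodes the actin-binding protein calmin, held 1 of 4232 bases (6.99 and 6.81). Prkcq, the gene of protein kinase C theta, held regions of 3563 and 3245 bases, and Nav2, a neuron navigator, held 1 of 3430 bases. Each of the 5 was split from the nearest ASC peak by at least 1.17 kb.

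Some lost regions lay in runs, though most groups held a single region. Grouping those less than 12.5 kb apart gave 2072 groups, of which 1550 were single regions, 185 held 3 or more and 40 held 5 or more. By this grouping 48.3% of lost regions had a lost neighbour. Other gene-body regions were not grouped, so nothing is read from this share. The longest run by number was in Clmn, with 19 lost regions in 60.4 kb, followed by Tgfbr3 with 17 in 74.9 kb and Cuedc1 with 13 in 52.0 kb. Nedd4l and Zbtb16 had runs of 12, Abr of 11, Pax7 of 10 in 47.8 kb and Fam53b of 9. Such numbers rest on how peaks are split. With peaks within 500 bases joined, Cuedc1 had 1 lost region in all and Pax7 had 6, where each had 13 as deposited. Clmn then had 16 in place of 21, and Tgfbr3 17 in place of 27.

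**Figure D2:**
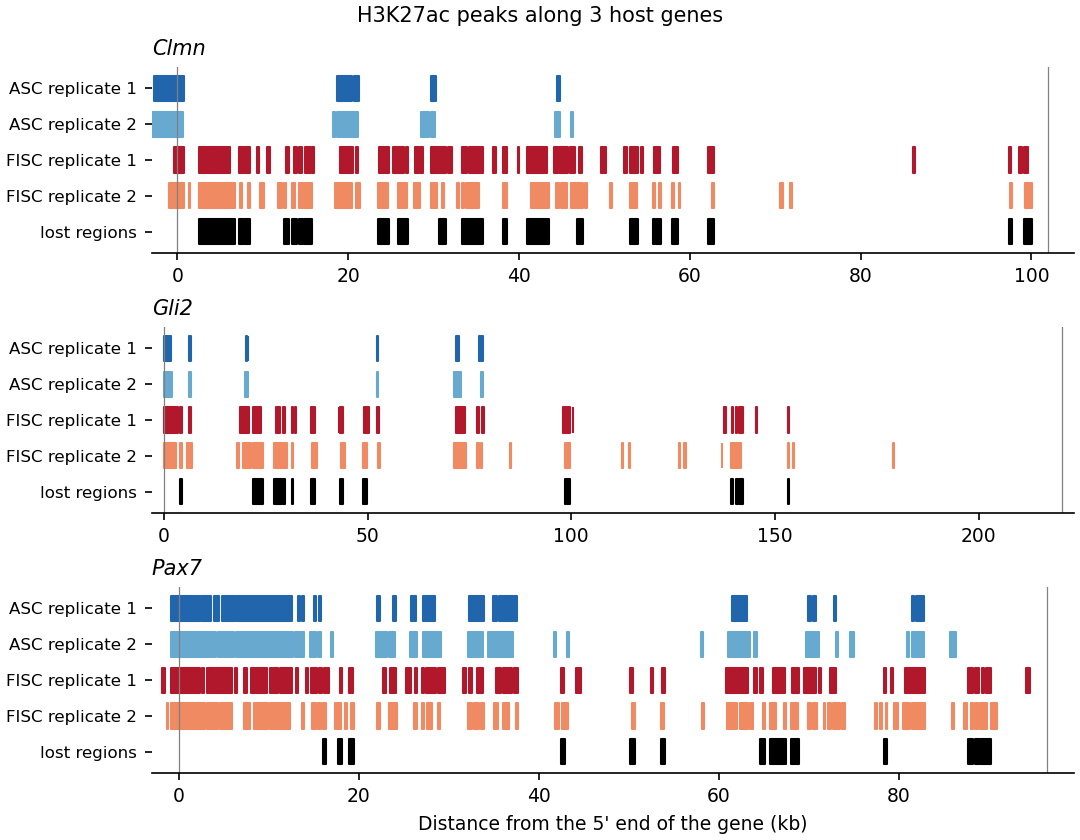
Peaks of each library along Clmn, Gli2 and Pax7 (1 row a library, bars from peak start to peak end) and the lost regions in black, against distance from the 5′ end of the gene in kb, with grey lines at both gene ends. Clmn and Gli2 have few ASC peaks beyond the 5′ end, and Pax7 has ASC peaks among its 13 lost regions.

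The 3000 regions had 1501 host genes, 22.3% of the 6734 protein-coding genes with any region in the body, while 46.7% of the 6734 held a gained region. Most hosts, 898, had 1 lost region, 481 had 2 to 4, 122 had 5 or more and 25 had 10 or more. Hosting went with length: the share of hosts by quartile of gene length was 10.4%, 16.5%, 24.2% and 38.1%, and the share with a gained region was 26.8%, 39.3%, 51.6% and 69%. Of the hosts 46.7% also held a gained region, the same share as of all 6734 genes. A constant region was held by 61.4% of hosts, beside 44.1% of the 6734, and 27.8% of hosts held neither. Hosts were longer, with a median of 90.7 kb against 50.6 kb for the 6734 genes, and length was not matched.

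The 10 hosts with most lost regions held 13 to 27 each. Tgfbr3, the co-receptor betaglycan that presents TGF-beta ligands, had 27 of 87 body regions lost, 2 gained and 8 constant. Nfia, a nuclear factor I protein, had 22 of 98 lost. Clmn had 21 of 48 lost, the highest share of the 10 at 43.8%, and 0 gained. Zbtb16, the zinc-finger repressor PLZF, had 19 of 53 lost and 0 gained.

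The next hosts were Arhgap24, a GTPase-activating protein for Rac, with 19 lost regions, the homeobox factor Cux1 with 16, Nedd4l with 15, Gli2, a transcription factor of the Hedgehog pathway, with 14, Zbtb20, a zinc-finger repressor, with 14 and Cuedc1, a CUE-domain gene, with 13. Nedd4l stood apart among the 10 with 16 gained regions beside its 15 lost, and Gli2 had 0 gained. Per 100 kb of gene, Clmn had 20.6 lost regions, Tgfbr3 14.7, Cuedc1 13.7 and Pax7 13.5, and the long genes Arhgap24 and Zbtb20 had 2.72 and 1.85.

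**Figure D3:**
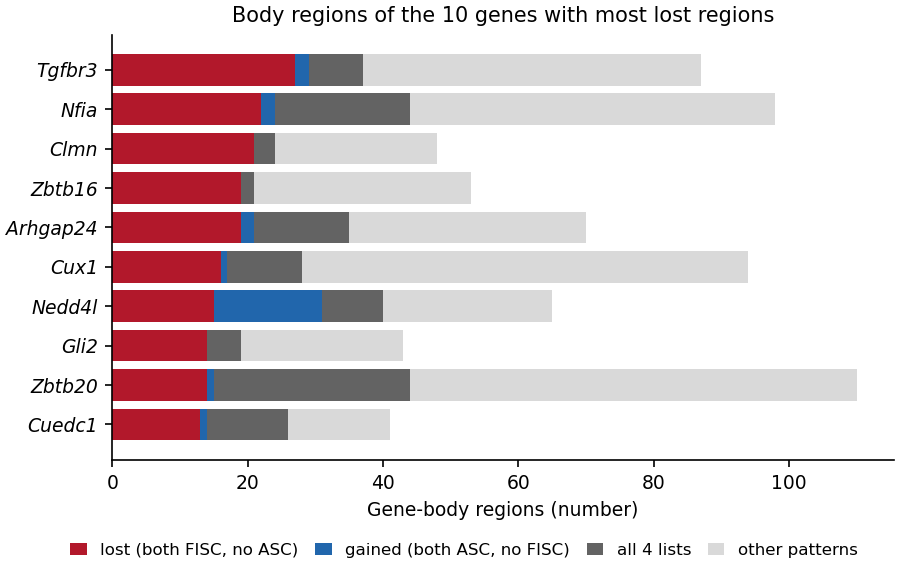
Number of gene-body regions (x axis) in each of the 10 genes with most lost regions, coloured by pattern: lost, gained, constant in all 4 lists, or any other pattern. Tgfbr3 has 27 lost regions, and Nedd4l is the gene with many gained regions, 16.

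The covered length of the gene body, meaning the kb under peaks inside the gene and more than 2 kb from any gene end, shows how much of each host's body was acetylated in each library. This measure contains the lost regions, so it describes them. Tgfbr3 had 8.63 and 13.9 kb in ASC replicates 1 and 2 and 38.9 and 42.0 kb in FISC replicates 1 and 2. In Clmn the values were 3.27 and 4.93 kb in ASC and 28.2 and 24.5 kb in FISC. Zbtb16 had 0.749 and 2.58 kb in ASC and 18.5 and 16.5 kb in FISC. The FISC values of these genes exceeded the ASC values several times over, and the groups did not overlap.

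In Gli2 the covered body was 2.67 and 3.31 kb in ASC and 18.6 and 21.1 kb in FISC. Prkcq had 1.65 and 2.15 kb in ASC and 15.7 and 16.4 kb in FISC. Nfia had 31.3 and 40.7 kb in ASC against 53.9 and 56.9 kb in FISC, and 20 of its 98 body regions were constant. Arhgap24, Cux1, Zbtb20 and Cuedc1 likewise had both ASC values below both FISC values, though with peaks held to a fold of at least 5 the mean of Cux1 was 3.79 kb higher in ASC. Nedd4l did not: it had 29.5 and 35.8 kb in ASC and 29.5 and 29.2 kb in FISC, and these ranges overlapped.

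**Figure D4:**
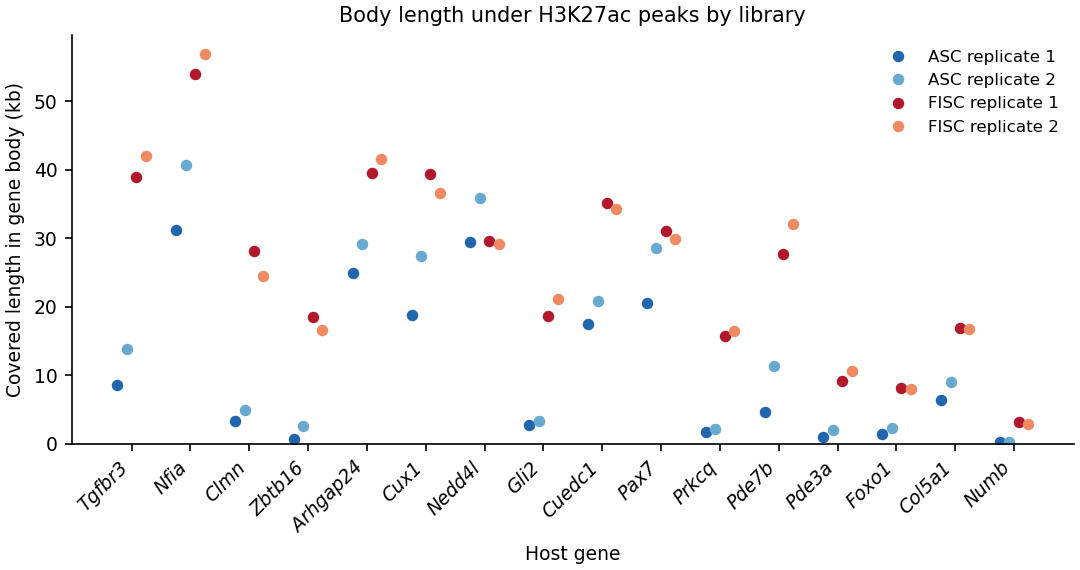
Covered length of the gene body in kb (y axis) for 16 host genes (x axis), with 1 point for each of the 4 H3K27ac libraries. Both FISC points lie above both ASC points in every gene shown except Nedd4l. The genes shown are a choice among the named hosts. Many named hosts are left out. Among them Zbtb20, Rora, Cry2, Klf9, Notch1, Jag1, Lrp6 and Tnxb were lower in both ASC libraries. Others, among them Ltbp1, Pde4d, Nfib, Mbp, Glis3, Ano1, Mylk, Pcolce2 and Cdh13, were higher in both. Ranges overlapped in further hosts, among them Foxo3, Heyl and Nfix. Both ASC libraries lay below both FISC libraries in 50.9% of all hosts and 17% of all genes.

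Among regulators of the resting satellite cell, Pax7, its defining transcription factor, had 13 lost, 14 constant and 0 gained regions. The lost regions of Pax7 were 339 to 1853 bases wide, with the strongest at chr4:139745227-139745835 (609 bases, folds of 5.65 and 4.89 in FISC replicates 1 and 2). Its covered body was 20.5 and 28.5 kb in ASC and 31.1 and 29.9 kb in FISC, a difference close to the spread of the ASC pair, and with peaks held to a fold of at least 5 it turned to 4.64 kb more in ASC. Foxo3, a forkhead factor of quiescence, had 4 lost, 4 gained and 4 constant regions, with 7.12 and 10.1 kb covered in ASC and 11.9 and 10.1 kb in FISC, ranges that overlapped. Heyl, a Notch target, had 1 lost region of 594 bases, with folds of 4.57 and 4.46. The collagen V genes, targets of Notch signalling in these cells, had 4 lost regions in Col5a1 and 1 in Col5a3, which was 1718 bases wide with folds of 6.99 and 6.28. Col5a1 had 6.43 and 9.07 kb covered in ASC and 17.0 and 16.8 kb in FISC. Calcr and Notch3 had 0 lost regions, as did Myf5 and Spry1, whose bodies held no region of any pattern.

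Gene lists were described by the share of their genes with a body region that hosted a lost one, beside 22.3% of all genes. The list of quiescence genes had 15 hosts among 26 (57.7%), with 66 lost and 20 gained regions. Satellite cell identity genes had 8 of 17 (47.1%), with 27 lost regions, of which 13 were in Pax7 and 5 in Tenm4, a teneurin. Genes of myogenic commitment and the sarcomere had 1 of 12 (8.33%) and cell cycle genes 2 of 13 (15.4%). A gained region was held by 50% and 69.2% of those genes, beside 46.7% of all genes with a body region. The 2 cell cycle hosts were Ccnd3, the gene of cyclin D3, with 7 lost regions and E2f3 with 1. Quiescence genes were longer than all genes with a body region, with medians of 62.2 and 50.6 kb. Other lists described below were longer still, with medians of 143.2 kb for cAMP and G protein, 166 kb for guidance and 220.4 kb for adhesion genes. The list of nuclear factor I, Pbx, Meis, Tead and Runx factors had 142.1 kb, and satellite cell identity genes 28.3 kb. Length was not matched in any list, and 38.1% of genes in the longest quartile (107.4 kb or more) were hosts.

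**Figure D5:**
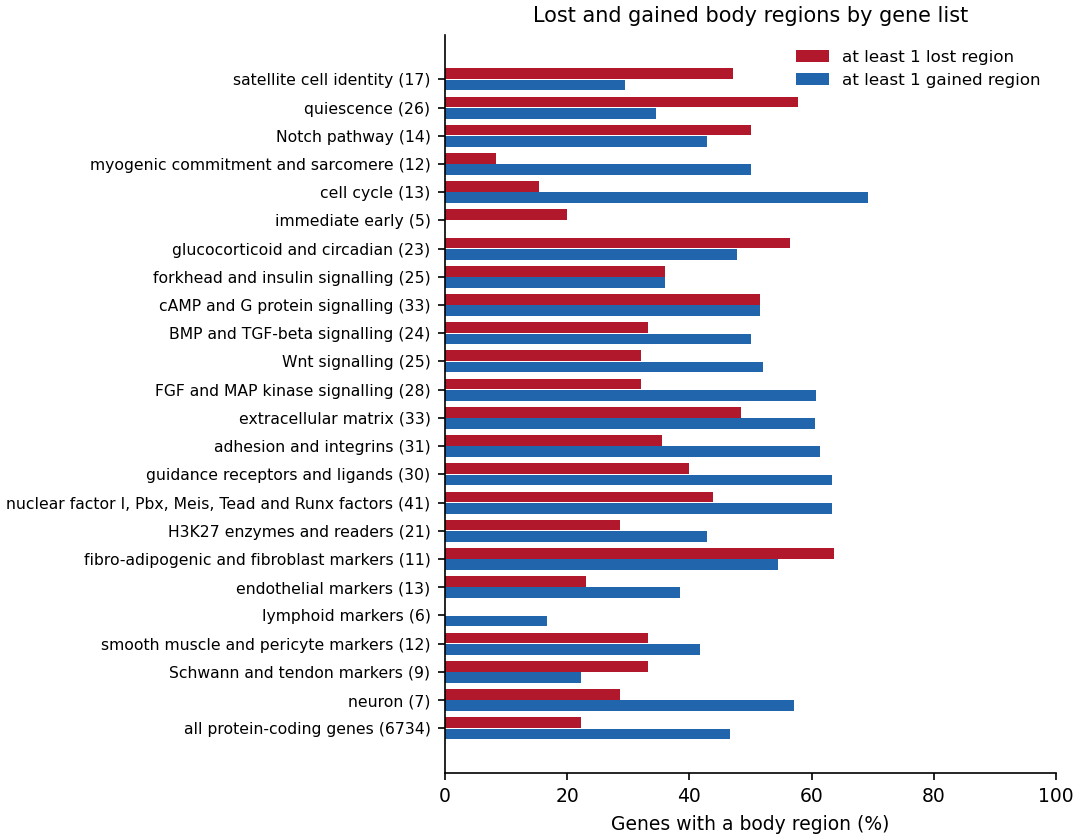
Percent of the genes with any body region that held at least 1 lost (red) or gained (blue) region, for each gene list with at least 5 such genes (number in brackets) and for all 6734 genes. Quiescence and glucocorticoid and circadian genes have lost shares of 57.7% and 56.5%, and cell cycle genes have a gained share of 69.2%. Over all 6734 genes the lost share is 22.3% and the gained share 46.7%.

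Glucocorticoid and circadian genes had 13 hosts of 23 (56.5%), with 45 lost and 18 gained regions. Rora had 10 lost regions and a covered body of 15.7 and 19.7 kb in ASC and 32.5 and 31.6 kb in FISC. Cry2, a repressor of the clock, had 3 lost and 0 gained regions, with 0 and 1.51 kb covered in ASC and 6.96 and 5.38 kb in FISC. Klf9, a glucocorticoid target, had 2 lost regions, with 2.13 and 2.53 kb in ASC and 6.63 and 6.22 kb in FISC. The 4 named genes, Zbtb16 with 19 lost regions among them, are also on the quiescence list, and their 34 lost regions count in each.

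In the Notch pathway 7 of 14 genes (50%) were hosts, with 16 lost and 17 gained regions. Numb, an inhibitor of Notch, had 5 lost and 0 gained or constant regions, and its covered body was 0.250 and 0.292 kb in ASC and 3.19 and 2.83 kb in FISC. The receptor gene Notch1 had 5 lost regions, with 3.55 and 5.68 kb in ASC and 9.64 and 8.31 kb in FISC. The ligand gene Jag1 had 2, with 2.18 and 2.76 kb in ASC and 5.99 and 7.58 kb in FISC. These genes were named as hosts. Summed over the whole Notch list, body coverage was greater in ASC, at 86.7 and 105.7 kb against 66.2 and 67.1 kb in FISC. Over all genes the sum was 19469 and 23810 kb in ASC and 13060 and 12753 kb in FISC, a larger rise in proportion. No gain particular to the list is read from its sum. Forkhead and insulin signalling genes had 9 hosts of 25 (36%), the same share as held a gained region. Foxo1 had 5 lost and 0 gained regions, with 1.43 and 2.30 kb in ASC and 8.14 and 7.95 kb in FISC.

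Genes of cAMP and G protein signalling had 17 hosts of 33 (51.5%) and as many with a gained region. Their lost regions were led by phosphodiesterases, the enzymes that break down cyclic nucleotides: Pde7b had 12, and Pde3a, Pde4b and Pde4d had 6 each. Pde7b had 4.64 and 11.4 kb covered in ASC and 27.7 and 32.0 kb in FISC, and Pde3a had 1.02 and 2.04 kb in ASC and 9.09 and 10.6 kb in FISC. Pde4d, with 13 gained regions, was covered over 52.8 and 68.3 kb in ASC and 46.4 and 51.7 kb in FISC. Coverage of Pde7b and Pde3a was lower in both ASC libraries, and Pde4d had more in both ASC libraries than in either FISC library, a direction that turned (−13.7 kb, ASC minus FISC) with coverage divided by each library's total.

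In BMP and TGF-beta signalling 8 of 24 genes (33.3%) were hosts, and 27 of the list's 51 lost regions were in Tgfbr3. Ltbp1, which stores TGF-beta in the matrix, had 10 lost and 12 gained regions, with 31.0 and 36.9 kb covered in ASC and 18.9 and 24.4 kb in FISC. Bmp6, a ligand, had 5 lost regions, with 6.65 and 8.999 kb in ASC and 17.8 and 15.6 kb in FISC. Smad6, an inhibitor of BMP signalling, had 4 lost regions, with 1.31 and 1.41 kb in ASC and 4.81 and 5.85 kb in FISC. So the ligand, the co-receptor and the inhibitor had less covered body in both ASC libraries. Ltbp1 had more, except with coverage divided by each library's total, where its difference was −0.0735 kb. These genes were named as hosts of lost regions. Summed over the whole list, body coverage was 153.4 and 192.8 kb in ASC replicates 1 and 2 and 158.0 and 159.7 kb in FISC, ranges that overlapped. Over all genes the sum was greater in both ASC libraries.

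Wnt signalling had 8 hosts of 25 (32%). The Wnt receptor gene Ror1 had 12 lost regions and 1 gained, and the co-receptor gene Lrp6 had 5 lost and 0 gained, with 1.35 and 0.663 kb covered in ASC and 5.79 and 7.59 kb in FISC. FGF and MAP kinase genes had 9 of 28 (32.1%), among them Fgfr1 with 3 lost regions. The covered body of Fgfr1 was 10.03 and 14.1 kb in ASC and 19.6 kb in each FISC library. Summed over the whole lists, body coverage was greater in ASC, with a smaller rise in proportion than over all genes. For Wnt genes it was 70.2 and 87.8 kb in ASC and 64.8 and 65.6 kb in FISC. For FGF and MAP kinase genes it was 171.1 and 216.3 kb in ASC and 126.5 and 126.0 kb in FISC. Among H3K27 enzymes and readers 6 of 21 (28.6%) were hosts, with 12 of the 19 lost regions in Hdac4, a class IIa deacetylase.

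Extracellular matrix genes had 16 hosts of 33 (48.5%), and 60.6% of the 33 held a gained region, beside 46.7% of all genes with a body region. Hmcn2, a hemicentin, had 7 lost regions and a covered body of 2.18 and 3.22 kb in ASC and 9.09 and 8.19 kb in FISC. Tnxb, which encodes tenascin X, had 5 lost regions, 1 of them with folds of 7.80 and 7.85, and 1.07 and 2.16 kb in ASC against 7.60 and 6.07 kb in FISC. Col15a1, a basement membrane collagen, had 6 lost and 3 gained regions. Adhesion genes had 11 hosts of 31 (35.5%). Cdh13, a cadherin gene, had most, with 10 lost and 12 gained regions. Its covered body was longer in ASC, at 34.6 and 43.5 kb against 27.6 and 28.3 kb in FISC. Utrn and Tenm4 had 5 lost regions each, and Dag1, the gene of dystroglycan, had 4. Guidance genes had 12 hosts of 30 (40%), including Plxna2, a semaphorin receptor, with 10.

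The list of nuclear factor I, Pbx, Meis, Tead and Runx factors had 18 hosts of 41 (43.9%), with 53 lost and 120 gained regions. Within the nuclear factor I family, Nfia had 22 lost regions, Nfix 5 and Nfib 2. The covered body of Nfib was 24.03 and 28.4 kb in ASC and 15.2 and 12.8 kb in FISC, longer in ASC where that of Nfia was shorter, and at equal covered length its difference was −0.152 kb. Nfix had 36.0 and 46.7 kb in ASC and 41.5 and 36.0 kb in FISC, ranges that overlapped.

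Markers of other cell types were hosts to different extents. Myeloid and lymphoid markers had 0 hosts among 3 and 6 genes with a body region. Endothelial markers had 3 hosts of 13, Erg, Esam and Vwf, each with 1 lost region. Fibro-adipogenic and fibroblast markers had 7 of 11, the highest share of the 25 lists at 63.6%, with 10 lost regions, 2 of them in Cd34, which satellite cells also express, and 2 in Ebf2, whose body was bare in ASC and covered over 0.806 and 1.12 kb in FISC. Pcolce2 of the same list had 2 lost and 2 gained regions, with 1.95 and 2.21 kb in ASC and 1.55 and 1.27 kb in FISC. Smooth muscle and pericyte markers had 4 of 12 (33.3%), with 7 lost regions, and in Myh11 and Abcc9 no ASC library had a peak in the body. The other hosts, Ano1 with 3 lost regions and Mylk with 2, had more covered body in ASC. Ano1 had 4.76 and 6.76 kb in ASC and 2.23 and 2.28 kb in FISC. Mylk had 3.51 and 4.13 kb in ASC and 2.01 and 2.21 kb in FISC. Schwann and tendon markers had 3 of 9 (33.3%), Pmp22, Ngfr and Mbp, with 5 of their 32 body regions lost (15.6%), beside 8.59% of all body regions. The covered body of Pmp22 and Ngfr was lower in both ASC libraries. That of Mbp was higher, at 12.08 and 12.06 kb in ASC and 3.81 and 3.82 kb in FISC. Summed over the fibroblast list, body coverage was 30.2 and 38.1 kb in ASC and 32.3 and 34.2 kb in FISC, and over the smooth muscle list 32.9 and 42.5 kb in ASC and 26.99 and 26.94 kb in FISC. The part of such cells in the lost regions was not tested.

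Across all genes the covered body was mostly longer in ASC, and with the lists as deposited more hosts of lost regions were lower than higher. Among 6337 genes covered in at least 2 libraries, limma with Benjamini-Hochberg adjustment over all of them called 632 (9.97%) lower and 2746 (43.3%) higher in ASC at an adjusted p of 0.05. Of 1500 hosts tested, 506 (33.7%) were lower and 287 (19.1%) higher. The median difference, ASC minus FISC, was 0.532 kb over all genes and −0.419 kb over hosts. Both ASC libraries lay below both FISC libraries in 17% of all genes and 50.9% of hosts. The rule used the same contrast, so nothing is read from these shares. With coverage divided by each library's total, 2346 genes were higher and 1305 lower, and with all lists cut to an equal covered length 966 were higher and 1596 lower. Without ASC replicate 1, ASC replicate 2, FISC replicate 1 and FISC replicate 2 in turn, limma called 329, 455, 155 and 197 genes lower and 1852, 1359, 1057 and 1154 higher. Among hosts the lower calls were 297, 386, 133 and 174 and the higher calls 385, 273, 66 and 76, so without ASC replicate 1 more hosts were higher than lower. With peaks held to a fold of at least 5 the hosts turned as well, with 376 higher, 188 lower and a median difference of 0.521 kb.

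At gene ends, in windows reaching 2 kb to either side of both ends, which hold no midpoint of a lost region, the direction of the hosts depended on the scaling. Of 12921 genes tested with limma in the same way, 467 (3.61%) were lower and 3411 (26.4%) higher in ASC, and of 1231 hosts 138 (11.2%) were lower and 196 (15.9%) higher. The median difference was 0.304 kb over all genes and 0.092 kb over hosts. Both ASC libraries lay below both FISC libraries in 11% of all genes and 26.2% of hosts. The contrast is again that of the rule, so these shares are a description. With coverage divided by each library's total, 1188 genes were higher and 4734 lower, and the median difference became −0.345 kb over all genes and −0.637 kb over hosts. Cut to an equal covered length, 1906 were higher and 1580 lower, with medians of 0.185 kb over all genes and −0.0605 kb over hosts. Without FISC replicate 1 or 2 the calls lower in ASC were 79 and 61 genes, and without ASC replicate 1 they were 287.

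Individual hosts differed in what happened at their ends. Cuedc1 had 1.55 and 1.84 kb covered at its ends in ASC and 3.47 and 3.60 kb in FISC, and Prkcq had 1.09 and 1.28 kb in ASC and 2.53 and 2.77 kb in FISC. Tnxb, at 0 and 0.233 kb in ASC and 2.80 and 2.44 kb in FISC, and Hmcn2, at 0.417 and 0.509 kb in ASC and 3.77 and 2.98 kb in FISC, had little end coverage left in ASC. Clmn went against its body, with 2.77 and 2.71 kb at its ends in ASC and 1.11 and 1.93 kb in FISC, and Cux1 had 3.97 and 4.98 kb in ASC and 2.89 and 2.73 kb in FISC. Gli2 had 1.72 and 1.96 kb in ASC and 1.98 and 2.00 kb in FISC, a small gap beside that of its body, and Foxo3 had 4.001 kb in all 4 libraries, the length of the window at 1 end.

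The number of lost regions rests on the peak threshold and on having 2 FISC libraries. With single FISC libraries the count was 6781 without replicate 1 and 7630 without replicate 2, and it was 788 when peaks of all lists were held to a fold of at least 5. Of the 3000, 303 had a fold of at least 5 in both FISC libraries.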

How the data were processed

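Per the labels' protocols, chromatin bound by an H3K27ac antibody was tagmented while bound (ChIPmentation) and sequenced. Per the submitters' processing notes, bcl2fastq 2.19, BWA, Picard and MACS2 were used with mm10. Other versions, the settings and the use of the 4 inputs were not given in the sources used here. Deposited narrow peak lists hold a fold enrichment (a ratio to background), −log10 p and −log10 q values and an integer score from the authors' peak caller.

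Peaks of the 4 lists were merged, placed on 21883 RefSeq protein-coding genes (GRCm38.p6) and classed by list. Where a region held several peaks of a library, the highest fold was used. Covered kb per gene were fitted with limma 3.58.1 in R 4.3.3 (trend, genes covered in at least 2 libraries, Benjamini-Hochberg, threshold 0.05), tested on simulated data first.

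Named were the 10 strongest and 5 widest regions, the 10 hosts with most members, Pax7 and 8 other regulators where they had members, and up to 4 hosts of each of 25 lists (683 genes); other genes named were chosen after their values were seen. The members and the lists were chosen with earlier results of these data known. The 20 members with several hosts count for each. Motifs at peak summits, planned for a genome, and exons and introns were not analysed here. Alternatives covered peak cut-offs, list length, overlap, joining, distance, annotation, scale, filter, window and each library left out.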

Additional observations from a re-analysis of the deposited data

How the results depend on the processing

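The number of lost regions stayed within 1.5 times of 3000 under an equal peak number, a stricter overlap, joining of peaks within 500 bases, other distances from gene ends, the ends of every annotated gene and, added after seeing the data, no ASC peak within 1 kb (2354). It was 1596 with peaks of a −log10 q of at least 5, 788 with a fold of at least 5, 6733 at equal covered length and, in an alternative added after seeing the data, 303 with both FISC folds of at least 5 and the ASC lists as deposited. Leaving out each library gave 3207 to 7630. Counts in single hosts could move more than the total. Cuedc1 and Pax7, with 13 each, had 1 and 6 with peaks joined within 500 bases. With no ASC peak within 1 kb they had 6 and 8. Of the 3000, 1083 were kept at the −log10 q limit and 302 at the fold limit. Depth is unknown, so a lost region cannot be told from one just under the threshold in ASC.

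Counts of genes by covered body moved as follows. At equal covered length 966 were higher and 1596 lower in ASC, with 99 hosts higher and 923 lower. Divided by total covered length, 1305 genes and 869 hosts were lower. With a fold of at least 5, 257 genes were lower and 2308 higher, and the hosts turned, with 188 lower, 376 higher and a median difference of 0.521 kb against −0.419 kb. With 1 library left out, 1057 to 1852 genes were higher and 155 to 455 lower, and 66 to 385 hosts were higher and 133 to 386 lower.

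Counts at gene ends moved more. Divided by total covered length, 1188 genes were higher and 4734 lower, with 50 hosts higher and 713 lower. At equal covered length the counts were 1906 and 1580, with 100 and 249 hosts. With no filter on coverage they were 1244 and 167, with 66 and 58 hosts. With a window of 1 kb they were 1913 and 226, with 91 and 60 hosts. With a fold of at least 5, 282 genes were lower. With 1 library left out, 669 to 3530 genes were higher and 61 to 374 lower, and 40 to 249 hosts were higher and 32 to 125 lower.

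The replicate numbers were not shown to pair the libraries, since deviations of equal numbers correlated at −0.0231 (gene ends) and 0.0673 (bodies). With the replicate number as a block, 2986 genes were higher and 430 lower at gene ends (183 and 128 hosts), and 2773 and 613 in bodies (269 and 510 hosts). Each of these counts is within 1.5 times of that without the block.

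The differences of 38 named genes in bodies and 18 at gene ends, ASC minus FISC in kb, were recomputed, and the sign changed in 16 cases. At gene ends these were Tgfbr3 (0.035) and Gli2 (0.0565) with the 1 kb window, Zbtb20 (−0.788) divided by total covered length and Col5a3 (0.067) with a fold of at least 5. In bodies Cux1 (3.79) and Pax7 (4.64) turned with a fold of at least 5. Divided by total covered length, Nedd4l (−11.0), Pde4d (−13.7), Ltbp1 (−0.0735) and Nfix (−16.03) turned, and at equal covered length Nedd4l (−10.9), Pde4d (−13.2), Nfib (−0.152) and Nfix (−17.7). Nfix also turned without ASC replicate 2 (−2.71) and without FISC replicate 2 (−0.156), in a range of −2.71 to 7.93 with 1 library left out. The cause was not tested. Of the other cases, 363 kept their direction and side of the threshold, 60 no longer passed it and 40 newly passed it.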
